A study of Homo sapiens with 9 samples.

Results

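The genes described here are 35 genes of cholesterol and fatty acid synthesis, chosen by name for their place in these pathways. The choice was made with earlier results of these data known, so shares of members called are not those of a list drawn up blind to the values. All 35 were in the deposited table of 19389 genes, and 33 passed the filter on low values, as did 11924 genes in all. They comprise 7 enzymes that run from acetyl-CoA to farnesyl pyrophosphate, 3 that run from there to lanosterol and 8 that run from lanosterol to cholesterol. The other members are 5 genes that encode or control the SREBP transcription factors, called regulators below, together with 7 fatty acid enzymes and 5 genes of sterol transport and oxysterol production. The fatty acid enzymes make, elongate or desaturate fatty acids. RNA was sequenced from SW1353, a cell line from a human chondrosarcoma that serves as a stand-in for chondrocytes. All cells were plated for 24 h and grown with fetal bovine serum. In the PBSL + IL-1β group (n = 3), cells were given PBSL, made from the larvae of Protaetia brevitarsis seulensis (a beetle), for 2 h and then 20 ng/mL of the inflammatory cytokine IL-1β for 20 h. The IL-1β group (n = 3) received the cytokine at the same dose and for the same time. The untreated group (n = 3) received neither. No libraries of cells given PBSL alone were analysed here, and the PBSL dose of the sequenced cells is not given in the sources used here. All libraries come from 1 cell line, and the labels do not say whether the replicates were separate cultures, so p-values measure only the spread between these libraries.

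Cells build cholesterol from acetyl-CoA through mevalonate, squalene and lanosterol, and fatty acids from the same acetyl-CoA by way of malonyl-CoA. Both pathways are driven by SREBP proteins, which SCAP carries from the endoplasmic reticulum to the Golgi when sterol is scarce and which INSIG proteins hold back when sterol is plentiful. Oxysterols turn on the LXR receptors, which raise the cholesterol exporters, and in macrophages inflammation and interferon are known to reshape sterol synthesis. In chondrocytes cholesterol metabolism is studied for its part in osteoarthritis.

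The deposited values were normalised for transcript length and depth, and are called units below; read counts were not used, so the depth of each library is unknown. They summed to 523758 to 553196 units per library, with 11562 to 11727 genes at 1 unit or more. Of 9 cartilage markers 4 passed the filter. SOX9 averaged 8.92 units with PBSL + IL-1β, 8.80 with IL-1β and 12.0 untreated, while COL2A1 reached at most 0.027 units and COL9A1 at most 0.013, so these defining cartilage collagens were close to 0. In both IL-1β-treated groups 3 of the 4 tested cartilage markers were called lower than untreated and 1 higher. The higher one was ACAN, at 1.80 units on average with PBSL + IL-1β, 1.42 with IL-1β and 0.501 untreated. Of all genes tested 19.3% were called lower and 22.3% higher than untreated with PBSL + IL-1β, and 16.0% and 16.2% with IL-1β. Of 5 epithelial markers 2 passed, the keratins KRT8 and KRT18, and both were called lower than untreated in both treated groups. KRT19 did not pass but reached 7.95 units in an untreated library. It averaged 0.330 units with PBSL + IL-1β, 0.354 with IL-1β and 3.04 (SD 4.26) untreated. The mean log2 value of the epithelial list was 3.26 in untreated library 1, against 2.63 in library 2 and 2.56 in library 3. Of 6 macrophage markers 1 passed, CSF1R, at 3.26 to 3.61 units with PBSL + IL-1β, 3.72 to 3.81 with IL-1β and 2.69 to 3.06 untreated, and it was called higher than untreated in both treated groups (log2 0.22, adjusted p = 0.0285, with PBSL + IL-1β and 0.33, adjusted p = 0.00386, with IL-1β). The other 5 reached at most 1.06 units, and the macrophage list summed to 4.28 to 4.56 units with PBSL + IL-1β, 4.98 to 5.28 with IL-1β and 4.31 to 4.62 untreated. None of 5 adipocyte markers (highest library value 1.37 units), of 4 hepatocyte markers (0.681) or of 4 endothelial markers (0.991) passed. The part of these markers in the results below was not tested. On the second principal component, which held 16.6% of the variance, PBSL + IL-1β library 1 (-0.578) lay between libraries 2 (-18.2) and 3 (-16.8) of its group and the IL-1β libraries (11.5 to 12.4). Member calls of PBSL + IL-1β that changed without library 1 are given below. In bulk RNA, fewer cells that express a gene and less of its RNA per cell cannot be told apart.

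With IL-1β, SC5D and ACAT2 of the sterol pathway fell most among the members, and the cholesterol exporter ABCA1 rose most. Of the 33 tested members 16 were called, 8 higher and 8 lower than untreated cells, which is 48.5%, against 32.1% of all genes tested (16.2% higher and 16.0% lower). A call means a Benjamini-Hochberg adjusted p under 0.05 from limma across all 11924 genes. For 22 of the 33 members every library of 1 group lay above every library of the other, as it did for 52.8% of all genes. Log2 fold changes, here and below on the log2(value + 1) scale that understates changes of low genes, ran between -0.62 for SC5D and 1.13 for ABCA1. The members' median absolute change was 0.17, against 0.14 over all genes tested.

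PBSL before IL-1β was followed by few member differences from IL-1β alone. ELOVL6, which elongates fatty acids, and PMVK, the phosphomevalonate kinase, rose, whereas ABCA1, SREBF2 and ACLY fell. These 5 called members are 15.2% of the 33, against 22.5% of all genes tested (11.5% higher and 11.0% lower), so the members were called no more often than the table as a whole. The groups did not overlap for 7 members, against 41.8% of all genes. Median absolute log2 changes were 0.07 over the members and 0.12 over all genes.

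Set against untreated cells, PBSL + IL-1β gave 16 called members, 8 higher and 8 lower, or 48.5%, against 41.6% of all genes (22.3% higher and 19.3% lower). The groups did not overlap for 15 of 33 members, against 48.2% of all genes. This comparison shares the untreated libraries with the first, and 7 members were higher and 5 lower in both IL-1β-treated groups. In all, 19 members were called at least once, 14 never, and ELOVL6 and ABCA1 in all 3 comparisons. The matching shares of all genes tested are not given here, so these counts over several comparisons show nothing particular to the members.

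**Figure D1:**
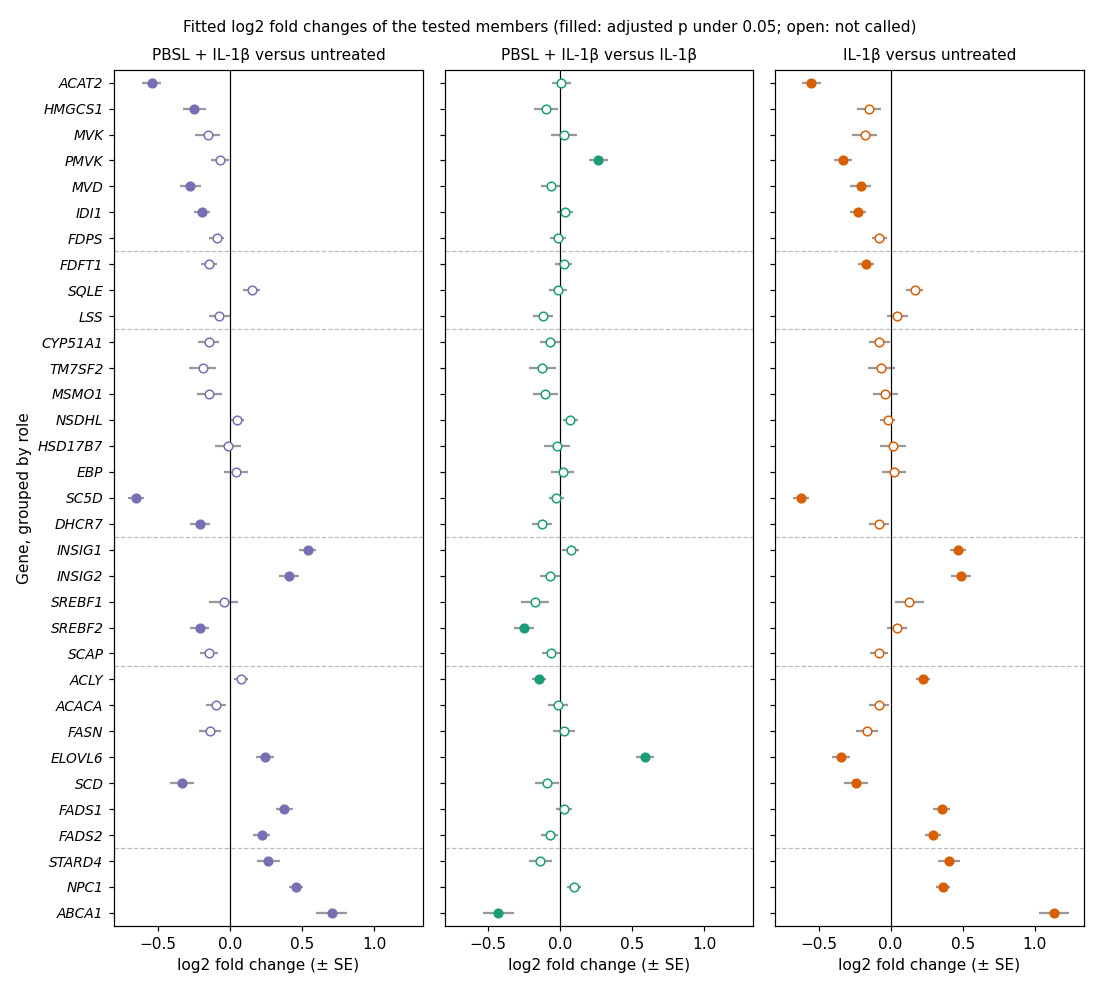
Log2 fold changes of the 33 tested members on the log2(value + 1) scale, with standard errors as bars, in a panel for each of the 3 comparisons. Filled points are called at an adjusted p under 0.05. They number 16 for IL-1β against untreated cells, 5 for PBSL + IL-1β against IL-1β, and 16 for PBSL + IL-1β against untreated cells.

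The first 7 enzymes lead to farnesyl pyrophosphate, the branch point to sterols and prenyl groups. With IL-1β 4 of the 7 fell and none was called higher, with PBSL + IL-1β against IL-1β 1 rose, and against untreated cells 4 fell. Of all genes tested, 16.0% were called lower with IL-1β, and 11.5% higher with PBSL + IL-1β against IL-1β. Against untreated cells 19.3% were called lower with PBSL + IL-1β. ACAT2, the cytosolic thiolase that joins 2 acetyl-CoA, had 36.2, 32.2 and 31.8 units with PBSL + IL-1β, 33.0, 32.2 and 34.3 with IL-1β, and 50.6, 51.0 and 45.6 in untreated cells. All 6 IL-1β-treated libraries lay below all untreated ones, and those with and without PBSL overlapped. Its log2 change with IL-1β was -0.55 ± 0.06 (SE, adjusted p = 4.95e-05), and that of PBSL + IL-1β against IL-1β was 0.01 ± 0.06 (adjusted p = 0.954). Exons of ACAT2 (hg38 chr6:159760328-159779055, plus strand) overlap those of SOD2 and TCP1 on the other strand, and the use of strand in counting is not given in the sources used here. SOD2, the mitochondrial superoxide dismutase, has 2 rows in the table. The higher averaged 1273 units with PBSL + IL-1β, 1325 with IL-1β and 35.7 untreated, a difference in the direction opposite to that of ACAT2, and the other averaged 0.300, 0.178 and 0.643 units in the same groups. Whether shared reads affect ACAT2 was not tested.

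PMVK, which adds the second phosphate to mevalonate, had 23.5, 25.2 and 21.7 units with PBSL + IL-1β, 19.5, 19.2 and 19.3 with IL-1β, and 25.2, 23.1 and 25.7 in untreated cells. The IL-1β libraries lay below all others, and the PBSL + IL-1β libraries overlapped the untreated ones. PMVK fell by 0.33 ± 0.06 with IL-1β (log2, SE, adjusted p = 0.00186) and was 0.26 ± 0.06 higher with PBSL + IL-1β than with IL-1β (adjusted p = 0.0143). The PMVK rise was no longer called without PBSL + IL-1β library 2 (adjusted p = 0.051), IL-1β library 2 (0.0545) or IL-1β library 3 (0.0508).

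IDI1, the isopentenyl diphosphate isomerase, had 57.0, 52.4 and 54.7 units with PBSL + IL-1β, 51.7, 52.9 and 55.5 with IL-1β, and 65.3, 63.3 and 59.5 untreated. MVD, the mevalonate diphosphate decarboxylase, had 37.0, 34.8 and 29.6 units with PBSL + IL-1β, 34.8, 35.8 and 35.1 with IL-1β, and 41.3, 41.1 and 40.3 untreated. For both genes every untreated library was above every other library. IDI1 changed by -0.23 with IL-1β (adjusted p = 0.00761) and by -0.19 with PBSL + IL-1β against untreated cells (adjusted p = 0.0146, or 0.0622 without untreated library 1). MVD changed by -0.21 (adjusted p = 0.0414) and -0.27 (0.00894). The MVD call with IL-1β was lost when any 1 of the 6 libraries compared was left out (adjusted p 0.0801 to 0.114).

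HMGCS1, the HMG-CoA synthase, had 77.1, 61.9 and 74.8 units with PBSL + IL-1β, 73.8, 74.4 and 79.7 with IL-1β, and 85.3, 90.3 and 77.8 untreated. PBSL + IL-1β lay below untreated in all libraries, while IL-1β overlapped untreated. HMGCS1 was called only in PBSL + IL-1β against untreated cells (-0.25, adjusted p = 0.0316), and not without untreated library 1 (0.0783), untreated library 2 (0.119) or PBSL + IL-1β library 2 (0.106). MVK, the mevalonate kinase, and FDPS, which makes farnesyl pyrophosphate, were called in no comparison. Their log2 differences lay between -0.18 and 0.03, and FDPS, at 107 to 124 units over the 9 libraries, has 8 annotated pseudogenes that could share its reads.

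FDFT1, SQLE and LSS take farnesyl pyrophosphate through squalene and its epoxide to lanosterol. FDFT1, the squalene synthase, had 140, 124 and 132 units with PBSL + IL-1β, 131, 128 and 130.0 with IL-1β, and 153, 146 and 139 untreated. The IL-1β libraries were below all untreated ones, and the PBSL + IL-1β libraries overlapped both. FDFT1 fell by 0.17 ± 0.06 with IL-1β (log2, SE, adjusted p = 0.036). That call was lost without any 1 of the 6 libraries compared except untreated library 3 (adjusted p 0.081 to 0.145). SQLE, the squalene epoxidase, had 75.5 to 76.9 units with IL-1β and 64.6 to 69.5 untreated, which did not overlap, a log2 difference of 0.17 (adjusted p = 0.0525). SQLE passed the threshold without PBSL + IL-1β library 1 (0.0232), 2 (0.02) or 3 (0.0485), which enter only through the shared spread. LSS, the lanosterol synthase, had 40.1 to 50.2 units in the 9 libraries and was called in no comparison.

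Of the 8 enzymes between lanosterol and cholesterol, SC5D was called with IL-1β and limma called none with PBSL + IL-1β against IL-1β. In the latter comparison 0 of 8 had an unadjusted p under 0.05, against 4360 of the 11924 genes tested. SC5D and DHCR7, which act next to each other near the end of the route, were called lower in PBSL + IL-1β than in untreated cells. SC5D, the sterol C5-desaturase (hg38 chr11:121292453-121308694, plus strand), had 49.7, 46.4 and 53.4 units with PBSL + IL-1β, 50.6, 50.3 and 51.1 with IL-1β, and 79.4, 78.8 and 77.7 untreated. The untreated libraries stood well above the other 6, which overlapped each other. SC5D averaged 63.3% of its untreated level with PBSL + IL-1β and 64.5% with IL-1β, and its log2 changes were -0.65 ± 0.05 (SE, adjusted p = 2.88e-06) and -0.62 ± 0.05 (adjusted p = 4.24e-06). Between PBSL + IL-1β and IL-1β the difference was -0.03 ± 0.05 (adjusted p = 0.762).

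DHCR7, which reduces 7-dehydrocholesterol to cholesterol, had 67.0, 56.3 and 59.1 units with PBSL + IL-1β, 63.5, 69.7 and 66.1 with IL-1β, and 73.6, 65.8 and 71.5 untreated. The libraries of the 3 groups overlapped, and PBSL + IL-1β against untreated gave -0.21 (adjusted p = 0.0323). That DHCR7 call was lost without untreated library 1 (0.11) or 3 (0.0939) and without PBSL + IL-1β library 2 (0.111) or 3 (0.0774). The other 6, CYP51A1, TM7SF2, MSMO1, NSDHL, HSD17B7 and EBP, were called in no comparison (CYP51A1 and HSD17B7 have 3 and 2 annotated pseudogenes that could share reads), and their IL-1β differences from untreated lay between -0.08 for CYP51A1 and 0.02 for EBP. Their levels differed widely, from 2.38 to 3.34 units for the sterol C14-reductase TM7SF2 to 104 to 142 units for the methyl oxidase MSMO1. 

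Over all 18 sterol enzymes the sums were 1062, 929 and 973 units with PBSL + IL-1β, 1007, 1007 and 1008 with IL-1β, and 1145, 1116 and 1063 untreated. The sums with IL-1β were lower than all untreated sums, and PBSL + IL-1β library 1 came close to the lowest untreated one. The median log2 change was -0.08 with IL-1β and -0.15 with PBSL + IL-1β against untreated cells, with 14 and 15 of the 18 below 0, against medians of -0.0049 and 0.03 over all genes tested. Between PBSL + IL-1β and IL-1β it was -0.02, with 11 of 18 below 0.

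**Figure D2:**
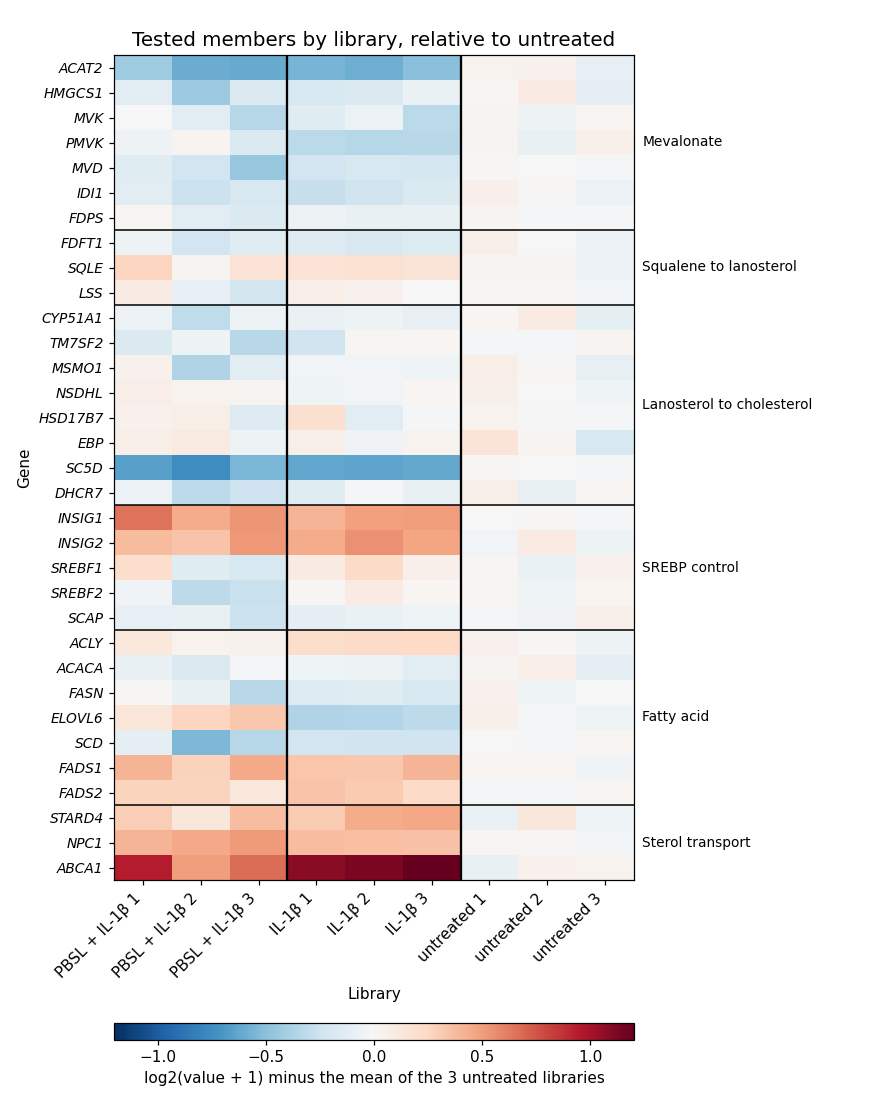
Heat map of the tested members (rows, ordered by role) in each of the 9 libraries (columns), coloured by log2(value + 1) minus the mean of the untreated libraries. ABCA1 is the strongest positive row in the IL-1β columns, with a mean difference of 1.13, and SC5D the strongest negative, with -0.62.

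The 5 regulators showed a rise of both INSIG genes without a called change in SCAP or SREBF1. INSIG1 and INSIG2 hold SCAP, and with it the SREBPs, in the endoplasmic reticulum, and INSIG1 is itself an SREBP target. INSIG1 (hg38 chr7:155297776-155310235, plus strand) had 240.1, 208 and 220.1 units with PBSL + IL-1β, 203, 216 and 216 with IL-1β, and 154, 154 and 150.0 untreated. INSIG2 had 12.6, 12.2 and 14.02 units with PBSL + IL-1β, 13.2, 14.3 and 13.5 with IL-1β, and 9.23, 10.2 and 9.02 untreated. For both, each of the 6 IL-1β-treated libraries lay above each untreated one, and the 2 treated groups overlapped. With IL-1β, INSIG1 rose by 0.47 ± 0.06 (log2, SE, adjusted p = 6.51e-05) and INSIG2 by 0.49 ± 0.07 (adjusted p = 0.000203). With PBSL + IL-1β against untreated cells INSIG1 rose by 0.54 (adjusted p = 1.87e-05) and INSIG2 by 0.41 (0.000589), and against IL-1β they differed by 0.07 (0.392) and -0.07 (0.473).

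SREBF2, which encodes the SREBP that mainly drives cholesterol synthesis, had 61.7, 50.9 and 52.6 units with PBSL + IL-1β, 64.2, 68.0 and 64.7 with IL-1β, and 64.6, 61.4 and 64.9 untreated. All PBSL + IL-1β libraries were below all IL-1β libraries, but library 1 was close to them and above the lowest untreated one. SREBF2 was 0.25 ± 0.07 lower on the log2 scale with PBSL + IL-1β than with IL-1β (log2 change -0.25, SE, adjusted p = 0.0223) and changed by -0.21 against untreated cells (adjusted p = 0.0282). The first SREBF2 call was lost without any 1 of the 6 libraries compared except PBSL + IL-1β library 1 (adjusted p 0.0549 to 0.0893). The second SREBF2 call was lost without untreated library 1 (0.0773) or 3 (0.0861) or PBSL + IL-1β library 2 (0.0978) or 3 (0.0779). With IL-1β against untreated cells SREBF2 differed by 0.04 (0.663).

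SREBF1, which encodes the SREBPs that mainly drive fatty acid synthesis, had 14.4, 11.0 and 10.7 units with PBSL + IL-1β, 13.2, 14.6 and 12.9 with IL-1β, and 12.6, 11.6 and 12.8 untreated. SCAP had 24.2, 24.4 and 21.6 units with PBSL + IL-1β, 23.9, 24.5 and 24.9 with IL-1β, and 25.7, 25.1 and 27.0 untreated. SREBF1 overlapped between PBSL + IL-1β and both other groups, while for SCAP every treated library lay below every untreated one. Neither was called, with log2 differences against IL-1β of -0.17 for SREBF1 (adjusted p = 0.222) and -0.06 for SCAP (0.466). Under quantile normalization SCAP was called lower with PBSL + IL-1β than in untreated cells (-0.21, adjusted p = 0.0173). For SREBF1 the 2 PBSL + IL-1β libraries other than library 1 were below every IL-1β and untreated library, and without library 1 the adjusted p was 0.00835.

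RefSeq promoter windows of build GRCh38.p14 were matched for 30 of the 35 genes and searched over the 250 bases before the start, on both strands. SREBPs bind sterol regulatory elements next to a CCAAT box, the site of NF-Y, so the windows of 5 members are shown, chosen after their values were seen. SC5D and ABCA1 had the lowest and highest change with IL-1β and ELOVL6 the highest with PBSL + IL-1β against IL-1β. INSIG1 and SREBF2 are regulators, and SREBF2 is the regulator called in that comparison. They are SREBF2 (chr22:41832855-41833104, plus strand), INSIG1 (chr7:155297628-155297877, plus), SC5D (chr11:121292521-121292770, plus, one of its 2 windows), ABCA1 (chr9:104928156-104928405, minus) and ELOVL6 (chr4:110198616-110198865, minus). Capitals mark a match to TCACNCCAC, a sterol regulatory element type, or to CCAAT on either strand (ATTGG on the other). The sequences read 5′ to 3′ on the gene's strand.
SREBF2: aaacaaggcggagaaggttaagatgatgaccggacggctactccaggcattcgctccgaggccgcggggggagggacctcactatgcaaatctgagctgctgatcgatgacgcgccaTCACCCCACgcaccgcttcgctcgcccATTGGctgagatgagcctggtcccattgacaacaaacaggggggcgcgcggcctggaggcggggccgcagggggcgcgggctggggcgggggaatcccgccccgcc
INSIG1: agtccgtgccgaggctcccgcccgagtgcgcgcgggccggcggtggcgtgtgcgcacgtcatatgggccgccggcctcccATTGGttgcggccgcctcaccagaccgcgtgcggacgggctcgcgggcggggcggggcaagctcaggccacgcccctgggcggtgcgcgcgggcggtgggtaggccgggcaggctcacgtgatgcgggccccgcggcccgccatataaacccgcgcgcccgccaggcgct
SC5D: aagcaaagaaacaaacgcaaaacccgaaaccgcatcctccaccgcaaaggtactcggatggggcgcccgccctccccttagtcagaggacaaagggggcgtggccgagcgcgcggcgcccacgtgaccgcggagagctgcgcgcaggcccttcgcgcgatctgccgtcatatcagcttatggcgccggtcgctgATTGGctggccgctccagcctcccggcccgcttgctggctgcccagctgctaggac
ABCA1: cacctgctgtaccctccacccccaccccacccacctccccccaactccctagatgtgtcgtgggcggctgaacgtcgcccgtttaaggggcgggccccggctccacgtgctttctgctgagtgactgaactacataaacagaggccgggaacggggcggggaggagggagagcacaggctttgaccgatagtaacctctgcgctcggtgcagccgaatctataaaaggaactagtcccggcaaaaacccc
ELOVL6: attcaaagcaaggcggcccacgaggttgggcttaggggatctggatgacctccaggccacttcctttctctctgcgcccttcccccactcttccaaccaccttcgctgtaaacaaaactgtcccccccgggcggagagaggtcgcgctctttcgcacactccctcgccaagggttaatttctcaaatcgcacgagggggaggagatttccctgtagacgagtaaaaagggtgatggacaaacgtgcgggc

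In the SREBF2 window the TCACNCCAC match began 133 bases before the start and the CCAAT box 106 bases before it. INSIG1 and SC5D held a CCAAT box, 170 and 56 bases before their starts, and no TCACNCCAC, while the windows of ABCA1 and ELOVL6 held neither. The SC5D and ELOVL6 windows, set by RefSeq starts, lie within the GENCODE spans of these genes, so matches before another start could differ. TCACNCCAC stood in the windows of 1 of the 30 member genes, or 2.5% of their 40 windows, against 0.883% of 35116 windows of all genes. CCAAT stood in those of 19 genes, or 57.5% of windows, against 32% of all, and the GC box GGGCGG in those of 29 genes, or 90% of windows, against 42.6%. These matches are letters only, and no site was measured. The windows of all genes were not limited to genes that passed the filter, whereas 33 of the 35 members passed it. The shares therefore compare unlike sets of genes.

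The 7 fatty acid genes did not move as a block. With IL-1β 3 rose (ACLY, FADS1 and FADS2) and 2 fell (ELOVL6 and SCD). With PBSL + IL-1β against IL-1β ELOVL6 rose and ACLY fell, and against untreated cells 3 rose and 1 fell. In this order of comparisons 71.4%, 28.6% and 57.1% of the 7 were called, against 32.1%, 22.5% and 41.6% of all genes tested. ELOVL6, which lengthens palmitate to stearate (hg38 chr4:110045846-110199199, minus strand), had 13.2, 14.4 and 15.1 units with PBSL + IL-1β, 8.96, 9.06 and 9.28 with IL-1β, and 12.4, 11.7 and 11.4 untreated. The 3 groups did not overlap, and their order was PBSL + IL-1β, untreated, IL-1β from high to low. PBSL + IL-1β reached 156% of the IL-1β mean, a log2 change of 0.59 ± 0.06 (SE, adjusted p = 0.00127), and 120% of the untreated mean, a change of 0.25 (adjusted p = 0.00874). ELOVL6 with IL-1β changed by -0.34 ± 0.06 against untreated cells (adjusted p = 0.0013). Among the members it was the only one whose PBSL + IL-1β call against IL-1β held under all 19 alternative settings, with log2 changes of 0.45 to 0.64.

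ACLY, which makes cytosolic acetyl-CoA from citrate, had 83.8, 79.0 and 79.8 units with PBSL + IL-1β, 88.7, 90.0 and 90.5 with IL-1β, and 79.3, 77.5 and 73.4 untreated. The IL-1β libraries were above all others, while PBSL + IL-1β overlapped untreated. ACLY rose by 0.22 ± 0.05 with IL-1β (log2, SE, adjusted p = 0.00402) and changed by -0.15 ± 0.05 with PBSL + IL-1β against IL-1β (adjusted p = 0.0473). The ACLY difference against IL-1β was not called without any 1 of the 9 libraries other than PBSL + IL-1β library 1 (adjusted p 0.0501 to 0.141).

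SCD, which puts the first double bond into stearate, had 89.8, 67.1 and 77.0 units with PBSL + IL-1β, 83.0, 82.6 and 82.4 with IL-1β, and 97.5, 96.3 and 99.4 untreated. Every untreated library was above every treated one, and the PBSL + IL-1β libraries spread on both sides of the IL-1β ones. SCD changed by -0.24 ± 0.08 with IL-1β (SE, adjusted p = 0.0441) and by -0.33 ± 0.08 with PBSL + IL-1β against untreated cells (adjusted p = 0.00712). The SCD call with IL-1β was lost when any 1 of the 6 libraries compared was left out (adjusted p 0.0831 to 0.114). ACACA, the acetyl-CoA carboxylase, had 9.30 to 11.2 units in the 9 libraries and was not called. FASN, the fatty acid synthase, had 36.9 to 37.7 units with IL-1β and 40.6 to 43.6 untreated, which did not overlap, a log2 difference of -0.16 that was not called (adjusted p = 0.126) but was without PBSL + IL-1β library 3 (0.02).

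FADS1 and FADS2, the delta-5 and delta-6 desaturases of polyunsaturated fatty acids, lie side by side on chromosome 11. FADS1 had 52.1, 47.6 and 54.2 units with PBSL + IL-1β, 49.7, 49.1 and 52.3 with IL-1β, and 39.7, 39.7 and 38.1 untreated. FADS2 had 26.2, 26.2 and 23.6 units with PBSL + IL-1β, 27.6, 27.1 and 25.5 with IL-1β, and 21.5, 21.4 and 22.0 untreated. Both were higher in every IL-1β-treated library than in every untreated one. With IL-1β FADS1 rose by 0.35 ± 0.06 (log2, SE, adjusted p = 0.00054) and FADS2 by 0.29 ± 0.06 (0.00213), and with PBSL + IL-1β against untreated cells by 0.38 (0.000292) and 0.22 (0.0099). Exons of FADS1 and FADS2 overlap on opposite strands and FEN1, a DNA repair nuclease, overlaps FADS2 on its own strand. FEN1 averaged 60.1 units with PBSL + IL-1β, 35.9 with IL-1β and 40.6 untreated, and whether its reads enter the FADS2 value was not tested.

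**Figure D3:**
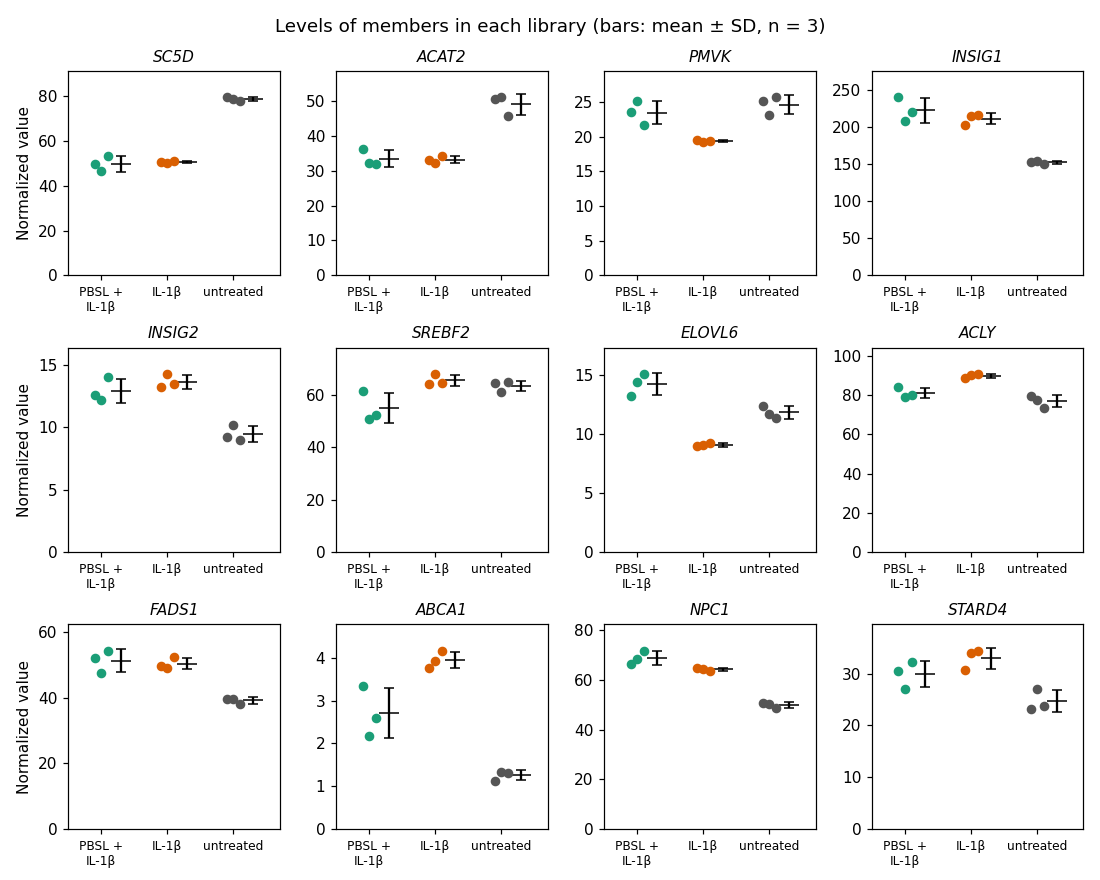
Values in units of 12 members, with a point per library and the mean ± SD of each group (n = 3), in the order PBSL + IL-1β, IL-1β and untreated. For SC5D the untreated libraries at 77.7 to 79.4 stand above the rest, and for ELOVL6 the IL-1β libraries at 8.96 to 9.28 stand below the rest.

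All 3 tested genes of sterol transport were called higher with IL-1β and with PBSL + IL-1β than in untreated cells, against 16.2% and 22.3% of all genes tested. ABCA1, the LXR-induced exporter that loads cholesterol onto apolipoprotein A-I, had 3.34, 2.18 and 2.60 units with PBSL + IL-1β, 3.77, 3.93 and 4.16 with IL-1β, and 1.12, 1.33 and 1.32 untreated. The 3 groups did not overlap, with IL-1β highest and untreated lowest. The IL-1β mean was 314% of the untreated mean, a log2 change of 1.13 ± 0.11 (SE, adjusted p = 6.83e-06), and the PBSL + IL-1β mean was 215% of it, a change of 0.71 ± 0.11 (adjusted p = 0.000268). Against IL-1β, ABCA1 with PBSL + IL-1β changed by -0.43 ± 0.11 (adjusted p = 0.0155). That ABCA1 call was lost without PBSL + IL-1β library 2 (0.0565), IL-1β library 2 (0.050) or IL-1β library 3 (0.06).

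NPC1, which carries cholesterol out of lysosomes, had 66.3, 68.5 and 71.5 units with PBSL + IL-1β, 64.8, 64.3 and 63.7 with IL-1β, and 50.7, 50.2 and 48.5 untreated. STARD4, a cytosolic sterol carrier, had 30.5, 27.1 and 32.2 units with PBSL + IL-1β, 30.7, 33.9 and 34.4 with IL-1β, and 23.2, 27.1 and 23.7 untreated. NPC1 separated all 3 groups, and for STARD4 the lowest PBSL + IL-1β library met the highest untreated one. With IL-1β NPC1 rose by 0.36 ± 0.05 (log2, SE, adjusted p = 0.000119) and STARD4 by 0.41 ± 0.08 (0.00193). Against untreated cells PBSL + IL-1β gave 0.46 for NPC1 (1.66e-05) and 0.27 for STARD4 (0.0175), the STARD4 call being lost without untreated library 1 (0.0678) or 3 (0.0644) or PBSL + IL-1β library 3 (0.0605). Against IL-1β neither was called, at 0.10 for NPC1 (0.168) and -0.14 for STARD4 (0.229). RMC1 overlaps NPC1 on the opposite strand, at 12.2 units with PBSL + IL-1β, 11.0 with IL-1β and 9.17 untreated.

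ABCG1, a cholesterol exporter to HDL, and CH25H, the interferon-induced enzyme that makes 25-hydroxycholesterol in macrophages, did not pass the filter. ABCG1 reached at most 0.07 units, and CH25H was listed at 0.04 units in PBSL + IL-1β library 1 and at 0 in the other 8. Of 15 tested interferon-response genes all 15 were called higher in both IL-1β-treated groups than in untreated cells, and 13 lower with PBSL + IL-1β than with IL-1β. Of all genes tested 16.2% were called higher with IL-1β and 22.3% with PBSL + IL-1β than in untreated cells. Lower with PBSL + IL-1β than with IL-1β were 11.0% of all genes. In this list, calls were compared across the alternative settings only for OAS3, IFIT3, IFI27 and IFI6. The lower call of IFIT3 was lost under some of these settings, such as without PBSL + IL-1β library 2 (adjusted p = 0.073) or 3 (0.06). The interferon list summed to 386 to 870 units (with PBSL + IL-1β), 1278 to 1470 (with IL-1β) and 171 to 183 (untreated). A response of this list therefore stood beside a CH25H value near 0.

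The 3 PBSL + IL-1β libraries did not depart from IL-1β alike. Over the 33 members the median log2 difference from the IL-1β mean was 0.05 in library 1, -0.06 in library 2 and -0.08 in library 3, with 10, 24 and 21 members below 0. Library 1 was above the IL-1β mean for MSMO1 (139 units, against 129 to 131 with IL-1β), for SCD and for SREBF1, whereas library 2 was below it for all 3. Without library 1 the called members in PBSL + IL-1β against IL-1β number 10 and not 5, or 30.3% of the 33, while the called share of all genes becomes 32.9%. Added were LSS (adjusted p = 0.0147), MSMO1 (0.0498), DHCR7 (0.0296), SREBF1 (0.00835) and SCD (0.0235), all lower. Against untreated cells the lower members then number 14 and not 8, or 42.4% of the 33, against 20.7% of all genes called lower, with MVK (0.0466), FDPS (0.0194), FDFT1 (0.015), LSS (0.0342), MSMO1 (0.0179) and FASN (0.028) added. Without PBSL + IL-1β library 2 the lower members against untreated cells number 5, or 15.2% of the 33, against 17.4% of all genes, and SQLE was called higher (0.0113). Against IL-1β only ELOVL6 was then still called, or 3% of the 33, while the called share of all genes becomes 12.1%.

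**Figure D4:**
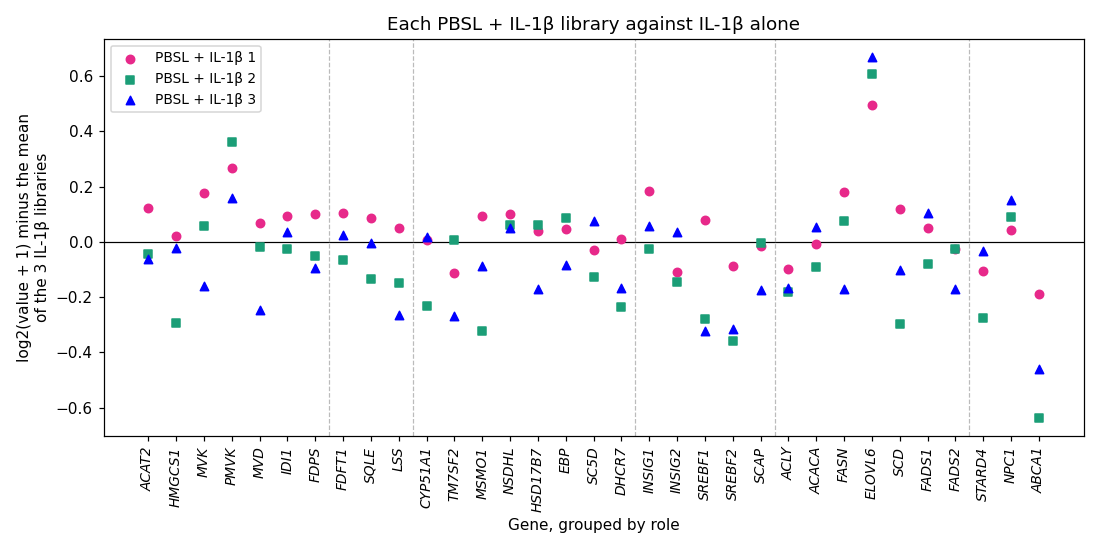
Difference in log2(value + 1) of each PBSL + IL-1β library from the mean of the IL-1β libraries, for the tested members. ELOVL6 is above 0 in all 3 libraries, while for MSMO1 and SCD library 1 lies above 0 and library 2 below it. Over the members the medians were 0.05 in library 1, -0.06 in library 2 and -0.08 in library 3.

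Further genes of the sterol pathway and its control, 23 in all and all tested, were called 11 times with IL-1β (8 higher, 3 lower), 6 times with PBSL + IL-1β against IL-1β (2 higher, 4 lower) and 11 times with PBSL + IL-1β against untreated cells (5 higher, 6 lower). These are 47.8%, 26.1% and 47.8% of the 23, against 32.1%, 22.5% and 41.6% of all genes tested, so the share with PBSL + IL-1β against IL-1β was near that of the table. TMEM97, an endoplasmic reticulum protein that binds NPC1, had 30.3, 36.6 and 35.4 units with PBSL + IL-1β, 22.2, 21.7 and 23.8 with IL-1β, and 29.6, 26.6 and 26.4 untreated. Its groups stood in the same order as those of ELOVL6 and did not overlap. TMEM97 rose by 0.57 with PBSL + IL-1β against IL-1β (adjusted p = 0.00264) and changed by -0.27 with IL-1β (0.0159), a difference not called without untreated library 1 (0.0737), IL-1β library 1 (0.0558) or IL-1β library 2 (0.0651). VLDLR, a lipoprotein receptor, rose by 0.31 with PBSL + IL-1β (0.00472) and 0.48 with IL-1β against untreated cells (0.00032).

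Of 24 further fatty acid genes 22 were tested, of which 11 were called with IL-1β (6 higher, 5 lower), 5 with PBSL + IL-1β against IL-1β (2 higher, 3 lower) and 7 with PBSL + IL-1β against untreated cells (3 higher, 4 lower). These are 50%, 22.7% and 31.8% of the 22, above the share of all genes with IL-1β (32.1%), near it with PBSL + IL-1β against IL-1β (22.5%) and below it with PBSL + IL-1β against untreated cells (41.6%). ACSL1, which activates long-chain fatty acids, had 29.3, 27.9 and 28.6 units with PBSL + IL-1β, 30.8, 31.6 and 33.1 with IL-1β, and 15.3, 15.1 and 15.9 untreated. Each treated library was well above each untreated one, and ACSL1 rose by 0.85 with PBSL + IL-1β (log2, adjusted p = 2.2e-07) and 1.00 with IL-1β (5.14e-08). The elongase ELOVL7 rose too, by 0.73 (3.29e-05) and 0.76 (2.62e-05). ACSS2, which makes acetyl-CoA from acetate, changed by -0.42 with PBSL + IL-1β (0.000269) and -0.27 with IL-1β against untreated cells (0.00584). FADS3, the neighbour of FADS1 and FADS2, had 66.2, 52.1 and 49.4 units with PBSL + IL-1β, 78.8, 82.7 and 81.0 with IL-1β, and 58.95, 65.3 and 57.9 untreated. It was highest with IL-1β, and changed by -0.54 with PBSL + IL-1β against IL-1β (0.00408), where FADS1 and FADS2 differed by 0.02 (0.796) and -0.07 (0.386). Against untreated cells FADS3 with PBSL + IL-1β was not called (-0.13, 0.294), but was without PBSL + IL-1β library 1 (-0.25, 0.00576). Without that library ACSL1 (-0.16, 0.0433) and ACSS2 (-0.20, 0.0243) were also called lower with PBSL + IL-1β than with IL-1β.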

How the data were processed

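Messenger RNA libraries of 9 SW1353 samples, 3 in each of 3 groups, had been made with a directional kit, per the labels' protocols. Trim Galore, STAR and HTSeq with build hg38 are named in the submitters' processing notes, without versions; the annotation, the handling of multi-mapped reads and the use of strand are not given in the sources used here. The deposited signal values were normalised by the authors for transcript length and depth, whether as FPKM or TPM is not given, and they are not counts. The count-based tools planned for whole-number counts were therefore not run.

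Genes were tested where 3 or more libraries had a value of 1 or more. After adding a pseudocount of 1 and taking log2, limma 3.58.1 (R 4.3.3) was fitted with a variance trend, using the 9 libraries together, 1 mean for each group and 6 residual degrees of freedom. Tests were 2-sided and p-values were Benjamini-Hochberg adjusted over the 11924 genes tested in each of 3 comparisons. With 3 libraries a group, the smallest p of an exact permutation test is 0.1. The fit was checked on simulated data. No replicate block was used, as the labels do not pair the libraries. The members, and the lists of companion genes and markers, were chosen with earlier results of these data known. Values in every library are given for members called at least once and for the 5 regulators, and up to 4 called genes with the smallest p were eligible to be named per companion list (sterol, fatty acid, isoprenoid, lipid storage, interferon). Some genes of the sterol list are not reported here. Gene positions and overlaps come from GENCODE 29, promoter windows from RefSeq. Results for the members, for the companion genes eligible to be named and for counts over all genes were recomputed under 19 alternative settings. Of the 35 members, 15 have exons overlapped by a gene on the opposite strand, 4 by one on the same strand, 5 have annotated pseudogenes and 17 have none of these.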

Additional observations from a re-analysis of the deposited data

How the results depend on the processing

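Over 19 alternative settings (18 for ABCA1 and TM7SF2, which the filter of at least 5 units removes) no member's called difference changed direction, and 13 of 16, 1 of 5 and 10 of 16 member calls held in all of them for IL-1β against untreated cells, PBSL + IL-1β against IL-1β, and PBSL + IL-1β against untreated cells. Without the variance trend 5 members and not 8 were called lower with IL-1β. In a fit over only the 6 libraries compared, 5 and not 8 were called lower with PBSL + IL-1β against untreated cells. The same kind of fit called 10 and not 8 lower with IL-1β against untreated cells. Leaving out 1 library at a time gave 13 to 18 called members with IL-1β (8 to 9 higher, 5 to 9 lower), 1 to 10 with PBSL + IL-1β against IL-1β (1 to 2 higher, 0 to 8 lower) and 11 to 22 with PBSL + IL-1β against untreated cells (7 to 9 higher, 4 to 14 lower). With PBSL + IL-1β against IL-1β 2684 of all genes were called, but 1451, 1304 and 1355 without IL-1β library 1, 2 and 3, and 3910, 1434 and 1853 without PBSL + IL-1β library 1, 2 and 3. A replicate block gave 16, 4 and 15 called members. Members called in some setting but not in the main fit numbered 3, 5 and 8, in the same order of comparisons. Deviations from the group mean correlated at -0.225 to 0.068 between libraries of the same number and at -0.111 to 0.196 between those of different number. With deviations taken within groups of 3, these correlations cannot show whether the numbers pair the libraries. Beside those lost on leaving out a library, member calls with IL-1β lost were MVD (adjusted p = 0.0648) and SCD (0.0835) with no filter, and MVD (0.0576), FDFT1 (0.0618) and SCD (0.0637) with no variance trend. With PBSL + IL-1β against IL-1β, ACLY was lost with no variance trend (0.0768), under the block (0.0848) and in the fit over 6 libraries (0.0712). With PBSL + IL-1β against untreated cells, calls lost were HMGCS1 (0.0625) and DHCR7 (0.0539) with no filter, HMGCS1 (0.050) under the block, HMGCS1 (0.0609), DHCR7 (0.064) and SREBF2 (0.0635) in the fit over 6 libraries, FADS2 (0.0579) and STARD4 (0.0766) under quantile normalization, and STARD4 (0.0505) with array weights. In the fit over 6 libraries, IL-1β calls gained were MVK (adjusted p = 0.0497) and FASN (0.00859), lower, and SQLE (0.00741), higher. Array weights also added FASN (0.0185) and SQLE (0.0104), and median-ratio rescaling SQLE (0.0433). Against untreated cells, PBSL + IL-1β gained lower calls of SCAP (0.0173) and FDFT1 (0.0141) under quantile normalization. Median-ratio rescaling (0.047) and array weights (0.0476) also added FDFT1. The causes were not tested. Count-based alternatives were not run, as the values are not counts. The depth of the libraries is unknown, and 3 libraries a group limit the precision.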

Other observations

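Farnesyl pyrophosphate also feeds ubiquinone, dolichol and protein prenylation, and all 10 listed genes of this isoprenoid branch were tested. With IL-1β 2 were called lower than in untreated cells and none higher, and with PBSL + IL-1β 3 were called higher and 1 lower. These are 20% and 40% of the 10, against 32.1% and 41.6% of all genes tested, so the list was called no more often than the table as a whole. Between PBSL + IL-1β and IL-1β limma called 0 of 10, while 5 had an unadjusted p under 0.05, as did 4360 of the 11924 genes tested. The median log2 difference of the 10 was 0.12, against 0.01 over all genes tested. PDSS2, a subunit of the synthase of the ubiquinone side chain, had 6.17, 6.46 and 6.47 units with PBSL + IL-1β, 5.51, 5.72 and 5.36 with IL-1β, and 6.98, 7.18 and 7.97 untreated. The 3 groups did not overlap, and PDSS2 changed by -0.36 with IL-1β against untreated cells (adjusted p = 0.00134). FNTB, the beta subunit of farnesyltransferase, had 8.84, 9.76 and 10.5 units with PBSL + IL-1β, 8.20, 8.24 and 8.44 with IL-1β, and 8.20, 8.03 and 7.81 untreated. FNTB rose by 0.25 with PBSL + IL-1β against untreated cells (adjusted p = 0.0121), all 3 of these libraries being above the other 6. Its difference of 0.20 from IL-1β had an adjusted p of 0.0502 and passed the threshold in 5 of 19 alternative settings, among them the one without PBSL + IL-1β library 1 (0.0096) and the filter of at least 5 units (0.0452).

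Genes of lipid droplets and triglyceride storage were called 4 times of 8 tested with IL-1β (3 higher, 1 lower), once with PBSL + IL-1β against IL-1β (lower) and 3 times with PBSL + IL-1β against untreated cells (2 higher, 1 lower). These are 50%, 12.5% and 37.5% of the 8, against 32.1%, 22.5% and 41.6% of all genes tested. HILPDA, a lipid droplet protein that inhibits lipolysis, had 15.3, 12.8 and 12.9 units with PBSL + IL-1β, 13.1, 12.9 and 13.5 with IL-1β, and 6.38, 7.65 and 6.63 untreated. DGAT2, which completes triglycerides, had 12.2, 14.9 and 11.7 units with PBSL + IL-1β, 12.1, 13.8 and 12.8 with IL-1β, and 7.55, 6.90 and 8.22 untreated. In both, every treated library was above every untreated one, and the treated groups overlapped. HILPDA rose by 0.89 with PBSL + IL-1β (adjusted p = 5.02e-06) and 0.85 with IL-1β (7.77e-06), and DGAT2 by 0.70 in each (0.000102 and 0.000109). LPIN1, a phosphatidate phosphatase, changed by -0.40 with PBSL + IL-1β (0.000389) and -0.37 with IL-1β (0.000776) against untreated cells. PNPLA2, the triglyceride lipase ATGL, had 41.7, 36.1 and 33.2 units with PBSL + IL-1β, 47.3, 49.8 and 48.2 with IL-1β, and 40.1, 38.6 and 38.9 untreated. It was highest with IL-1β, and changed by -0.38 with PBSL + IL-1β against IL-1β (0.00496). Against untreated cells PNPLA2 with PBSL + IL-1β was not called (-0.09, 0.361), but was without PBSL + IL-1β library 1 (-0.17, 0.0241).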
